A study of Homo sapiens with 2 samples.

Results

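Chromosomes 7 and 10 held 1024 of the 9717 FLAG peaks analysed here, after 3 segments with a very high number of peaks were left out. These 2 chromosomes are the ones most often gained (7) and lost (10) in glioblastoma, and chromosome 7 carries the growth factor receptor gene EGFR. Members were chosen by chromosome and then by local peak density: peaks whose summits fell in 122030116 to 126999210 or 135074614 to 137809874 of chromosome 7, or in 52072908 to 54624220 of chromosome 10 (hg19), were left out. This took away 335 of 1359 peaks. Of the members, 203 lay on the short arm of chromosome 7 (7p), 416 on its long arm (7q), 124 on the short arm of chromosome 10 (10p) and 281 on its long arm (10q), with the arms divided at 60 Mb and 40 Mb. Chromosomes 8, 9, 11 and 12, which held 464, 327, 273 and 333 peaks, served for comparison.

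The study mapped FOXO3 by chromatin immunoprecipitation with sequencing in U87MG, an established human glioblastoma cell line, with FLAG as the epitope tag that genome editing places on the endogenous factor. The series has 1 FLAG library and 1 library of input chromatin, both from cells that received LY294002, an inhibitor of phosphoinositide 3-kinase, and both labelled wild type. The labels do not say whether the input cells carried the tag, nor how many edited clones were used. With 1 ChIP library there was no replicate check: all intervals are 95% intervals that cover no more than counting error. They take each peak as a separate event. Peaks were more unevenly spread along the chromosomes than separate events would be, so the intervals of density ratios are too narrow.

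FOXO3 is a forkhead transcription factor whose access to the nucleus is controlled by the kinase AKT. Active phosphoinositide 3-kinase signalling leads to AKT phosphorylating FOXO proteins, which are then held in the cytoplasm, and inhibitors of the kinase let them enter the nucleus and bind DNA. EGFR is among the receptors that activate phosphoinositide 3-kinase. No peak was assigned to a gene, because annotation and sequence of hg19 were not used here.

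Each peak has a fold enrichment, which is the ChIP pileup at its summit over the background that the peak caller estimated there. The pileup is the number of sequenced fragments (tags) covering the summit. The background is the highest of a genome-wide value, 3.65 tags, and the values of small and large windows of the control library around the peak. A peak whose background equals 3.65 tags is therefore at a place where no control window rose above the genome-wide level. Copy number was not measured, and the background is known only at places where a peak was called.

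The strongest peak of chromosome 7 lay on 7p from 27702403 to 27703155. Its 236 tags stood over a background of 9.50, a fold of 22.6 (19.8 to 25.6). Intervals of fold cover the counting error of the pileup only, with the background held fixed, so error in the control would widen them. The next lay on 7q from 106808761 to 106809484, where 198 tags stood over 8.52, giving 20.9-fold enrichment (18.1 to 24.01). The peak of largest pileup among all members, 285 tags, was on 7q from 127876919 to 127877652. Its background was also high, at 15.8 tags, which left a fold of 17 (15.1 to 19.1). The intervals of the first and second overlapped.

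The other chromosome 7 peaks among the 8 of highest fold were weaker and of 2 kinds. On 7q, the peaks from 154958373 to 154958871 (201 tags, fold 13.4) and from 107383763 to 107384367 (194 tags, fold 13.0) had large pileups on backgrounds of 14.1 and 13.96 tags. By contrast, 3 peaks reached a similar fold from few tags on a low background. On 7q from 79847870 to 79848519 there were 60 tags over 3.72 (fold 12.9, interval 9.90 to 16.6). On 7p from 12529690 to 12530194 there were 59 over 4.05 (fold 11.9, 9.09 to 15.3), and on 7q from 114992381 to 114992813 there were 55 over 3.72 (fold 11.9, 8.98 to 15.4). The intervals of all 5 peaks overlapped.

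Chromosome 10 had its strongest peak on 10p, from 23727752 to 23728240, where 178 tags stood over 10.2, giving 15.9-fold enrichment (13.7 to 18.4). On 10q, the peak from 99400036 to 99400641 had 197 tags over 13.0, a fold of 14.1 (12.2 to 16.2). The 10q peak from 59463459 to 59464016 had only 58 tags but lay at the genome-wide background, with a fold of 12.7 (9.68 to 16.3). On 10p, 129 tags over 9.31 gave a fold of 12.6 (10.5 to 14.96) from 729252 to 729849. The intervals of these 4 peaks also overlapped. Below them, 69 tags over 5.59 gave a fold of 10.6 on 10p from 24724138 to 24724720.

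The remaining 3 of the 8 peaks of highest fold on chromosome 10 lay on 10q. The peak from 46090099 to 46090566 had 202 tags, the largest pileup on the chromosome, over 18.6, also its highest background, for a fold of 10.3 (8.98 to 11.9). Between 73078947 and 73079655, 96 tags over 8.38 gave 10.3-fold enrichment, and between 71206231 and 71206824, 85 tags over 7.45 gave 10.2. The 8 peaks of chromosome 7 ran from fold 11.9 to 22.6 and those of chromosome 10 from 10.2 to 15.9. In all, 12 of 619 members of chromosome 7 and 9 of 405 of chromosome 10 had a fold of 10 or more. On the comparison chromosomes it was 33 of 1397, and 195 of 8229 over all autosomes other than 7 and 10. Neither chromosome had a larger share of such peaks than these.

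**Figure D1:**
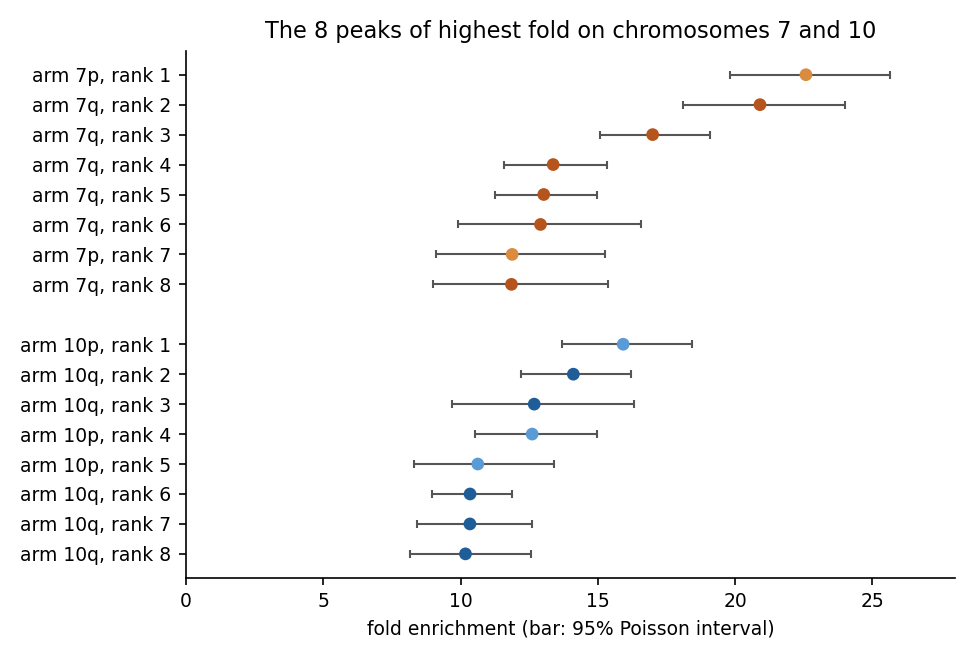
Fold enrichment (x axis) of the 8 peaks of highest fold on chromosome 7 (upper block) and chromosome 10 (lower block), labelled by arm and rank, with 95% Poisson intervals of the pileup. The first and second peaks of chromosome 7, at 22.6 and 20.9, are higher values than any shown for chromosome 10, whose highest was 15.9; the intervals of 20.9 (from 18.1) and 15.9 (to 18.4) overlap.

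Some members stood out by width or by isolation rather than by fold. The widest were 870 bp on 7p (43687233 to 43688102, 111 tags, fold 11.6), 942 bp on 7q (139426746 to 139427687, 74 tags, fold 7.05), 772 bp on 10p (3893641 to 3894412, 54 tags, fold 9.52) and 822 bp on 10q (64764743 to 64765564, 48 tags, fold 9.22). These compare with a median of 251.5 bp over all members. Peaks whose −log10 q reached 10 are called strong here, and the most isolated of them on 10q had no neighbour within 929 kb (47019004 to 47019453, fold 5.503). The most isolated strong peak of 7p lay at the chromosome's first summit (24013 to 24287, fold 6.14), 829 kb from the next. On 10p (15831818 to 15832522, fold 5.92) and 7q (144088890 to 144089118, fold 5.66) the distances were 542 and 393 kb.

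Strong peaks made up 57 of 203 members on 7p (28.1%), 104 of 416 on 7q (25%), 34 of 124 on 10p (27.4%) and 84 of 281 on 10q (29.9%). Over all peaks on chromosomes 1 to 22 and X the share was 25.3%, and over the 4 comparison chromosomes it was 30.3% (27.9 to 32.8). The arms lay near the background. On 7q the share was lower than that of the comparison chromosomes, with a difference of -5.28 percentage points (-9.91 to -0.310). For 7p, 10p and 10q the interval of the difference included 0. A fold of 5 or more was reached by 53 members on 7p (26.1%), 79 on 7q (19.0%), 31 on 10p (25%) and 79 on 10q (28.1%), against 22.1% of all peaks and 27.99% on the comparison chromosomes. On 7q this share too was lower than on the comparison chromosomes, with a difference of -9.00 points (-13.2 to -4.35). The interval of the 7q share, 15.3% to 23.1%, held the share of all peaks. With 7q divided at its first excluded segment, a division chosen after the values were seen, the parts differed. The difference was -15.1 points beyond the segment (-20.0 to -8.84), while before it the interval included 0 (-4.72 points, -10.1 to 1.40).

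Chromosome 7 had more peaks per Mb than chromosome 10, and chromosome 10 more than most of the comparison chromosomes. Outside the excluded segments, chromosome 7 held 4.10 peaks per Mb between its first and last summit and chromosome 10 held 3.19. Length beyond a chromosome's last summit, at 129775087 on chromosome 10, was not counted, and counting it would lower the density. The 4 comparison chromosomes together had 2.53. The ratio of chromosome 7 to them was 1.62 (1.47 to 1.78) and that of chromosome 10 was 1.26 (1.12 to 1.41). Since peaks were left out by their density, and none were left out of the comparison chromosomes, the ratios are a description and rest in part on the rule. When stretches of 3 Mb or more without a summit, such as that around a centromere, were taken out of every span, the ratios were 1.48 (chromosome 7) and 1.13 (chromosome 10), the latter with an interval from 1.00 to 1.26.

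The comparison chromosomes also differed among themselves. Chromosome 8 had 3.18 peaks per Mb, chromosome 12 had 2.51, chromosome 9 had 2.33 and chromosome 11 had 2.05. Chromosome 10 was level with chromosome 8, at a ratio of 1.00 (0.876 to 1.15), and above chromosome 11 at 1.56 (1.33 to 1.82). Chromosome 7 was above each of the 4, with ratios from 1.29 (1.14 to 1.46) against chromosome 8 to 2.0 (1.73 to 2.32) against chromosome 11. The ratio of chromosome 7 to chromosome 10 was 1.29 (1.13 to 1.46) for all peaks and 1.15 for strong peaks, where the interval (0.900 to 1.47) included 1.

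The higher density of chromosome 7 was larger among weak peaks than among strong peaks. For weak peaks, below the −log10 q threshold, the ratio of chromosome 7 to the comparison chromosomes was 1.72 (1.54 to 1.92), and for strong peaks it was 1.39 (1.15 to 1.67). The difference between these 2 ratios was not tested, and their intervals overlapped. Among peaks with a fold of 5 or more, the ratio of chromosome 7 to chromosome 10 was 1.01 (0.778 to 1.31). Strong peaks of chromosome 10 had a ratio of 1.21 to the comparison chromosomes, and its interval (0.980 to 1.49) included 1.

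Among the 4 arms, 7q was the densest. It held 4.86 peaks per Mb, against 3.65 on 7p, 3.48 on 10p and 3.34 on 10q. Each arm's span ran between its own first and last summit and so left out the stretch without summits at the arm boundary. Densities of whole chromosomes include that stretch and are not directly comparable with those of arms. The ratio of 7p to 7q was 0.752 (0.633 to 0.891), that of 7q to 10p was 1.40 (1.14 to 1.72) and that of 7q to 10q was 1.45 (1.25 to 1.70). Without the fullest bin of 7q the ratios were smaller, at 1.20 to 7p (1.01 to 1.44), 1.26 to 10p (1.03 to 1.56) and 1.31 to 10q (1.12 to 1.54). In the other 3 pairs of arms the interval included 1: 1.05 (0.835 to 1.32) for 7p to 10p, 1.09 (0.908 to 1.31) for 7p to 10q and 1.04 (0.836 to 1.29) for 10p to 10q. For strong peaks alone no pair of arms had an interval that left out 1. The largest ratio was 1.27 (0.856 to 1.93), for 7q to 10p.

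Bins of 5 Mb showed how uneven these densities were. Leaving out bins that hold part of an excluded segment, the mean was 3.38 ± 1.78 peaks per Mb on 7p (SD, 12 bins), 4.28 ± 2.85 on 7q (17 bins), 3.10 ± 1.66 on 10p (8 bins) and 3.22 ± 1.76 on 10q (17 bins). In the comparison chromosomes it was 2.47 ± 1.68 (113 bins). A single bin of 7q, from 130 to 135 Mb, held 62 members, which is 12.4 per Mb and above the highest of the 113 comparison bins (7 per Mb).

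**Figure D2:**
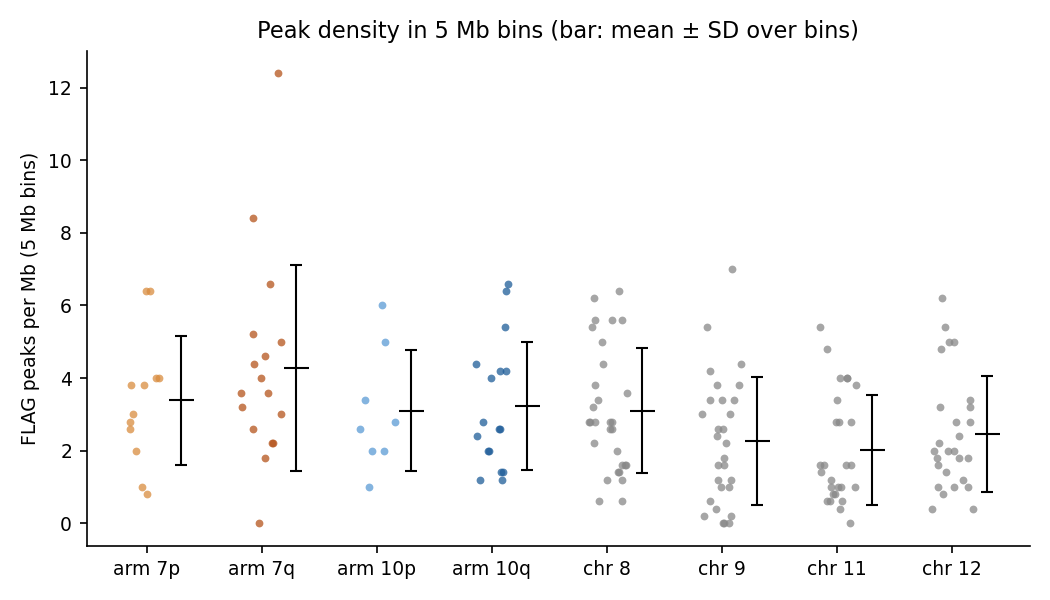
Peaks per Mb (y axis) in 5 Mb bins, 1 point per bin, for the 4 arms and the 4 comparison chromosomes, with the mean ± SD over bins beside each group. Bins with part of an excluded segment are not shown; the 7q bin at 12.4 per Mb stands apart, and the groups otherwise overlap.

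Within 7q, 2 bins of many weak peaks had unlike backgrounds. From 80 to 85 Mb there were 42 members, of which 1 was strong and 16 lay at the genome-wide background, with a median background of 3.72 tags and a median pileup of 19. From 130 to 135 Mb, 12 of the 62 members were strong, 2 lay at the genome-wide background, and the medians were 8.70 and 31 tags. Median folds were 3.86 and 3.42. The members of the second bin were most numerous from 130 to 131 Mb, with 23 peaks, 6 of them strong, on a median background of 12.2 tags.

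On 7p the fullest bins, 15 to 20 Mb and 30 to 35 Mb, held 32 members each, and the emptiest, 55 to 60 Mb, held 4. On 10p the fullest, 30 to 35 Mb, held 30 and the emptiest, 35 to 40 Mb, held 5. The neighbouring 10p bin from 25 to 30 Mb held 17 members and no strong peak. On 10q the fullest bin, 90 to 95 Mb, held 33 members, 7 of them strong, and the emptiest, 40 to 45 Mb and 55 to 60 Mb, held 6 each. Strong peaks were most numerous in a different 10q bin, 75 to 80 Mb, with 12 of 27 members. On 7q the bin from 60 to 65 Mb held none.

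**Figure D3:**
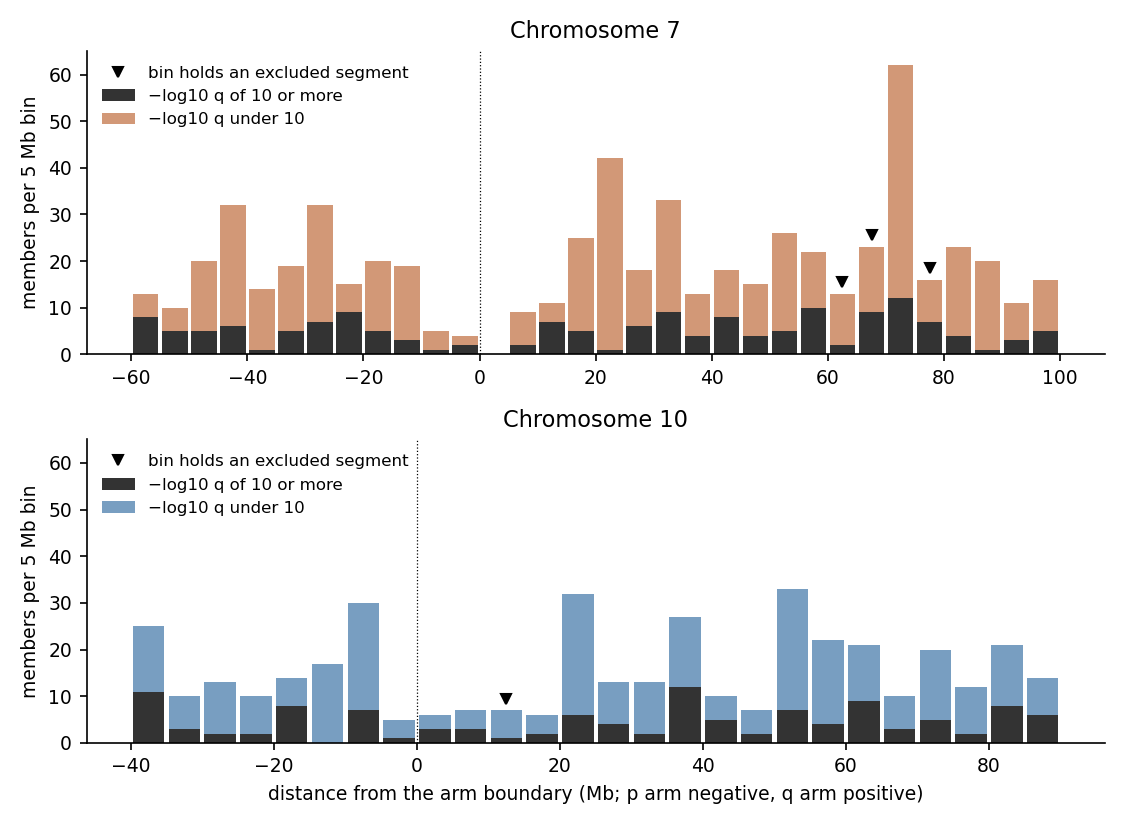
Members per 5 Mb bin (y axis) by distance from the arm boundary (x axis, Mb), for chromosome 7 (upper) and chromosome 10 (lower), with strong members in black and others in colour; triangles mark bins that lost peaks to an excluded segment. The bin of 62 members on 7q is the fullest, and strong members never exceed 12 in a bin.

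The longest stretches without a summit lay around the arm boundaries. On chromosome 7 no summit was called between 55602240 and 65263624 (9.66 Mb), and on chromosome 10 none between 35864174 and 43133644 (7.27 Mb). Between successive summits within the arms, the longest were 5.56 Mb on 7q (66688725 to 72249267), 3.96 Mb on 7p (51170756 to 55133386), 3.23 Mb on 10p (8355004 to 11581651) and 3.21 Mb on 10q (86211866 to 89417218). Stretches before a chromosome's first summit or after its last one, which lay at 129775087 on chromosome 10, were not measured. The peaks on either side of the boundary had folds of 3.86 and 2.96 on chromosome 7 and of 3.29 and 7.84 on chromosome 10.

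Neighbouring summits were a median of 98.03 kb apart on 7p (71.1 to 146), 75.5 kb on 7q (63.2 to 98.3), 120.5 kb on 10p (75.3 to 177) and 140.1 kb on 10q (115 to 175). The intervals of 7q and 10q did not overlap. On 7q, 69 of 413 neighbouring pairs lay within 10 kb (16.7%, 13.2 to 20.7), against 25 of 279 on 10q (8.96%, 5.88 to 12.9) and 18 of 202 on 7p (8.91%, 5.37 to 13.7). On 10p it was 15 of 123 (12.2%, 6.99 to 19.3). The intervals of 7p and 10p overlapped that of 7q. The comparison chromosomes ran from 6.02% to 10.7%, the highest being chromosome 9, whose interval (7.59 to 14.6) also overlapped that of 7q. The closest summits were 236 bp apart on 10p (17104998 and 17105234), 337 bp on 7q (114056418 and 114056755), 354 bp on 7p (7801977 and 7802331) and 655 bp on 10q (89605258 and 89605913).

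A few strong peaks lay near one another. Pairs of successive strong members within 50 kb numbered 6 of 56 on 7p, 11 of 103 on 7q, 3 of 33 on 10p and 6 of 83 on 10q. These were 7.23% to 10.7% of successive strong pairs, against 8.70% to 13.4% on the comparison chromosomes. The closest strong pair, 1.99 kb apart, was on 7q at 139424788 to 139425249 (fold 3.54) and 139426746 to 139427687 (fold 7.05), and another strong peak followed 13.6 kb further on (139440452 to 139440695, fold 3.93). Another run of 3 on 7q began at 130523460, with folds of 4.29, 4.65 and 4.70. On 10p, peaks of fold 10.6 and 9.12 lay 9.10 kb apart (24724138 to 24724720 and 24733207 to 24733678). On 10q, peaks of fold 9.44 and 7.89 lay 18.4 kb apart (97148226 to 97148746 and 97166641 to 97167052).

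A smaller share of members lay at the genome-wide background on chromosome 10 than on chromosome 7. Only 39 of 405 members of chromosome 10 lay at the genome-wide background (9.63%, 6.94 to 12.9). On chromosome 7 it was 103 of 619 (16.6%, 13.8 to 19.8). The share was 14.9% on the comparison chromosomes (13.1 to 16.9) and 19.2% over all peaks on chromosomes 1 to 22 and X. Chromosome 7 was 7.01 percentage points above chromosome 10 (2.76 to 11.03). The difference of chromosome 10 from the comparison chromosomes together was -5.26 points (-8.44 to -1.55). Against chromosome 9 alone, at 12.8%, it was -3.21 points, and its interval (-7.99 to 1.36) included 0. The difference between chromosome 7 and the comparison chromosomes, 1.75 points, had an interval from -1.61 to 5.35.

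By arm, the share was 10.5% on 10p (13 of 124, 5.70 to 17.3) and 9.25% on 10q (26 of 281, 6.13 to 13.3). The interval of the difference from the comparison chromosomes left out 0 for 10q (-5.64 points, -9.11 to -1.30) but not for 10p (-4.41 points, -9.09 to 2.46). On 7p it was 14.8% (30 of 203, 10.2 to 20.4) and on 7q 17.5% (73 of 416, 14.01 to 21.6). Of the 6 pairs of arms, only between 7q and 10q did the interval of the difference leave out 0 (8.30 points, 3.11 to 13.2). The 7q share was itself uneven, at 24.1% before the first excluded segment and 8.19% beyond it, a division chosen after the values were seen. A peak of few tags can be called only on a low background, so the share falls with pileup. Among members with 20 tags or fewer it was 42.0% on chromosome 7 and 31.6% on chromosome 10, a difference of 10.4 points whose interval, -2.70 to 22.3, included 0. Among those over 20 tags it was 6.16% and 4.56%. Within each class of pileup, the difference between the chromosomes was not detectable with these numbers. The difference of chromosome 10 from the comparison chromosomes was -3.94 points over 20 tags (-6.47 to -0.728) and -5.36 points at 20 tags or fewer (-16.2 to 6.89). Over 20 tags, the intervals against chromosome 8 (-5.51 to 1.65) and chromosome 9 (-7.76 to 0.559) included 0, as did that of 10p against the comparison chromosomes (-5.68 to 4.81).

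Median backgrounds were 5.59 tags on 7p (5.45 to 6.52), 5.59 on 7q (5.45 to 6.52), 6.52 on 10p (5.91 to 7.12) and 6.37 on 10q (5.59 to 6.56), with overlapping intervals. The comparison chromosomes had 5.73 (5.59 to 6.0). Median pileups were alike, at 26 tags on 7p and 7q and 27 on 10p and 10q, against 27 on the comparison chromosomes. Median folds were 4.08 on 7p (3.91 to 4.28), 3.81 on 7q (3.70 to 3.87), 3.86 on 10p (3.65 to 4.09), 4.01 on 10q (3.85 to 4.14) and 4.10 on the comparison chromosomes (4.05 to 4.21). The interval of 7q lay under those of 7p and of the comparison chromosomes. Without the fullest bin of 7q it was 3.81 to 4.0, which overlapped that of 7p but still lay under that of the comparison chromosomes.

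The median of 7q joined 2 unlike parts, on either side of its first excluded segment, a division chosen after the values were seen. The 245 members before it had a median background of 4.75 tags (4.65 to 5.45) and the 171 beyond it one of 8.38 (7.45 to 9.31). Before the segment 24.1% lay at the genome-wide background (18.9 to 29.9) and beyond it 8.19% (4.55 to 13.4). Backgrounds of 8 tags or more were found at 54 members before it (22.04%) and at 90 beyond it (52.6%). Median pileups were 24 tags before it (22 to 26) and 32 beyond it (27 to 38). Folds were lower beyond the segment, with a median of 3.52 (3.34 to 3.65) against 4.02 (3.87 to 4.19), and a fold of 5 or more was reached by 12.9% (8.24 to 18.8) against 23.3% (18.1 to 29.1).

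The large control windows went the same way. Where only a 10 kb window could have set the background, it held a median of 393 control tags beyond the segment (38 members, 335 to 482) and 298 before it (21 members, 274 to 364), and their intervals overlapped. On the comparison chromosomes the median was 335 (321 to 348). A window enters this count only above 261 tags, the number that equals the genome-wide background, so low values are not seen. Within members whose background was 8 tags or more, the median fold was 3.29 beyond the segment (3.05 to 3.65) and 3.75 before it (3.46 to 4.49), with overlapping intervals. Density was higher beyond the segment too, at 5.93 against 4.32 peaks per Mb (ratio 1.37, 1.12 to 1.68), but this rested on the bin from 130 to 135 Mb. Without that bin, a setting chosen after seeing the data, the ratio was 1.06 (0.837 to 1.33), while the median background beyond the segment was again 8.38 tags (7.45 to 9.50) and the median fold 3.57 (3.30 to 3.77). For strong peaks the ratio with all bins was 1.28 (0.842 to 1.93). The excluded segment that divides the arm was itself chosen for its density.

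High backgrounds toward the end of a long arm were not limited to chromosome 7. Each chromosome's stretch ran back 31.6 Mb from its last summit, the length from the first excluded segment of 7q to the last summit there. Any length beyond the last summit, at 129775087 on chromosome 10, was not covered. The median background in the stretch was 6.90 tags on chromosome 10 (6.14 to 7.54), 7.54 on chromosome 12 (6.98 to 8.66), 6.70 on chromosome 9 and 6.0 on chromosome 8. On chromosome 11 it was 3.72 (3.65 to 3.80, 39 peaks). The intervals of chromosomes 10 and 12 overlapped that of 7q. The share of folds of 5 or more in these stretches was 26.4% on chromosome 10 and from 23.2% to 33.3% on the comparison chromosomes. The median fold in the stretch of 10q was 3.96 (3.64 to 4.26), an interval that overlapped that of 7q beyond the segment.

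**Figure D4:**
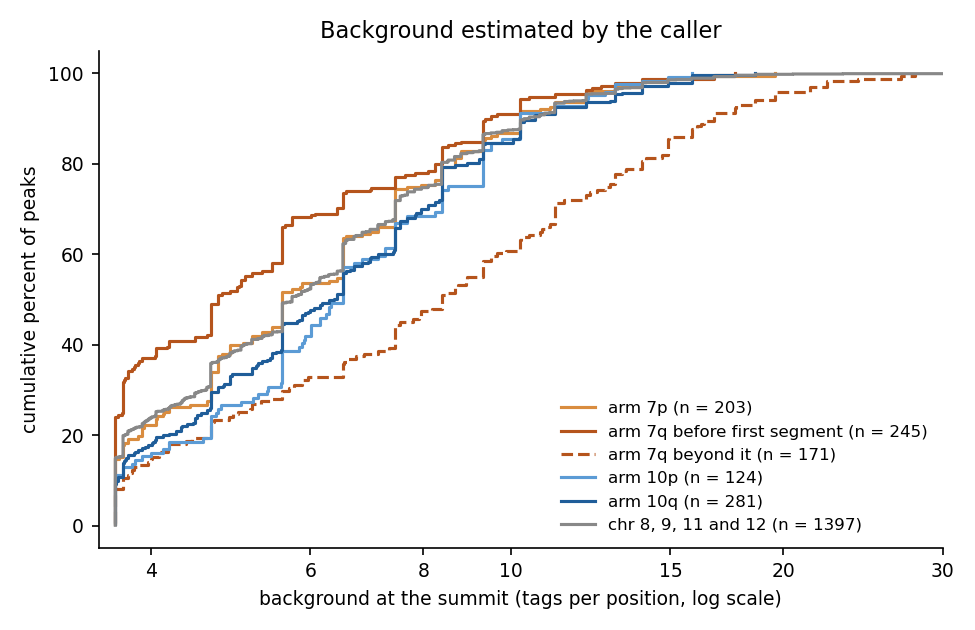
Cumulative percent of peaks (y axis) by the background at the summit (x axis, tags per position, log scale), for the arms, with 7q divided at its first excluded segment, and for the comparison chromosomes; a few comparison peaks beyond 30 tags fall outside the axis. The dashed line of 7q beyond the segment lies to the right of all others, with a median of 8.38 tags against 4.75 for 7q before it.

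The highest background of any member was 27.9 tags, on 7q from 151038691 to 151038958, where 73 tags gave a fold of only 2.56. On 7p the highest was 19.6 tags, from 5229699 to 5230111, with 102 tags and a fold of 5.01, and on 10p 15.8 tags, from 1101986 to 1102386, with 66 tags and a fold of 3.98. The highest bin median was 14.1 tags, from 150 to 155 Mb of 7q, where the 11 members had a median fold of 2.88. Of the 7q bins with at least 5 members, those with part of an excluded segment included, 7 of 19 had a median background of 8 tags or more, against 1 of 11 on 7p, 0 of 8 on 10p and 2 of 18 on 10q. On the comparison chromosomes it was 4 of 28, 3 of 22, 3 of 20 and 1 of 24.

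**Figure D5:**
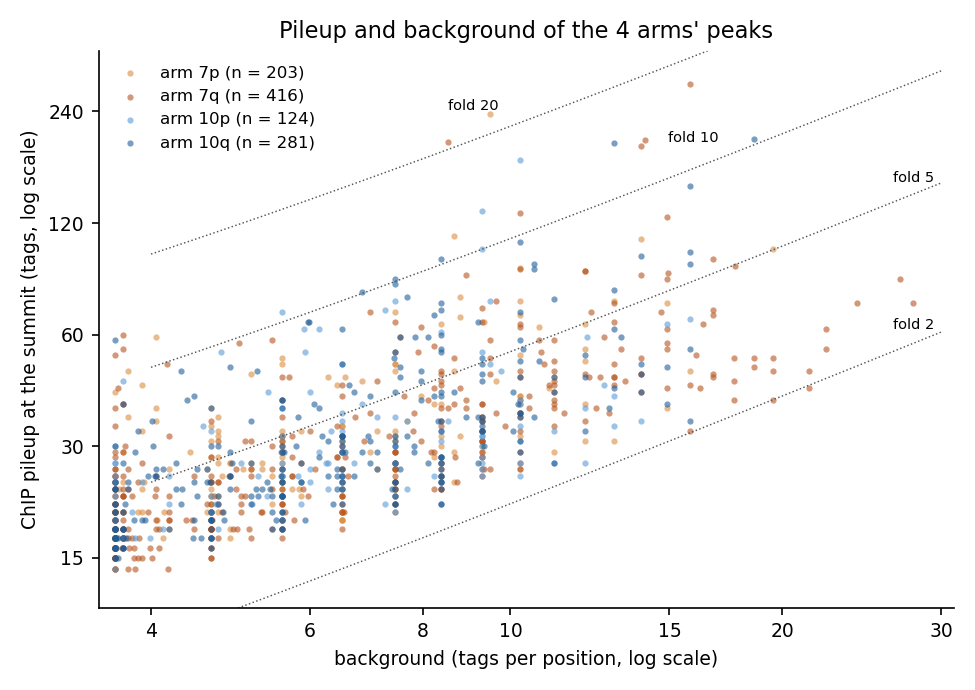
ChIP pileup at the summit (y axis, tags, log scale) against background (x axis, tags, log scale) for the 1024 members, coloured by arm, with dotted lines of equal fold. Most members lie between fold 2 and fold 10, and the backgrounds over 20 tags all belong to 7q.

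At the edges of the excluded segments, values inside and outside did not follow a single direction. On either side of the start of the first, folds were 3.36 (summit 122030116, a member) and 3.68 (122120204, left out). At its end they were 3.21 (126999210, left out) and 3.87 (127016582, a member). For the second segment the pairs were 4.02 (135074614, a member) and 2.60, and then 5.93 and 3.77 (138257955, a member). For the segment of chromosome 10 they were 2.89 (52072908, a member) and 9.52, and then 4.58 and 3.60 (56133912, a member). In 3 cases the first member sits at the bound itself, because the rule counts summits from 0 and the positions here count from 1. Counting from 1 in the rule too gives 1021 members.

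The 335 peaks left out had a median fold of 3.63, a median pileup of 19 tags and a median background of 4.38 tags, and 21 of them were strong (6.27%).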

How the data were processed

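One deposited list of FLAG peaks was analysed, and counts or reads were not used. The submitters' processing notes name hg19 as build and Trimmomatic, HISAT2 and MACS2 as tools, without versions or settings. Neither the control library nor the calling threshold was stated in the sources used here. Per peak the authors deposited a fold enrichment (a ratio), a −log10 p-value, a −log10 q-value and a summit offset. The deposited score is 10 × −log10 q, cut to a whole number.

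Pileup and background of each peak were solved from fold, (pileup + 1) / (background + 1), and the Poisson −log10 p-value (largest error 5.0e-04), after a test on simulated data. Backgrounds above the genome-wide value and under 20 tags were whole multiples, within 2e-04 tags, of the step of a fragment window (0.931 tags) or of a 1 kb or 10 kb window, and a value that several windows could give was counted for the smallest. The smallest pileup in the list was 13 tags, so weaker sites could not enter. Sequencing depth was not analysed here.

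Intervals are exact: Poisson for fold (pileup only, background held fixed), Clopper-Pearson for shares, order statistics for medians and conditional binomial for ratios of density. Differences of shares have Newcombe intervals. No p-value was computed. Spans run from first to last summit of the chromosome or arm, less the excluded segments. The peaks named are the 8 of highest fold per chromosome; per arm the 2 of highest fold, the widest, the one of highest background and the most isolated strong one; the closest pair and longest gap; the fullest and emptiest bins; and the peaks at the bounds. The division of 7q, the stretches before the last summits of the chromosomes, strong pairs, 1 Mb steps and further bins were chosen after their values were seen. The members and lists were chosen with earlier results of these data known. A forkhead motif search and gene assignment were not run, as hg19 sequence and annotation were not used here. Python 3.11.15, scipy 1.17.1, statsmodels 0.14.6 and pandas 2.3.3 were used.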

Additional observations from a re-analysis of the deposited data

Results flagged for a closer look

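On an unlocalized sequence assigned to chromosome 7, which no comparison used, 5 peaks were called, a signal in data outside the measurements above. Their folds ran from 2.25 to 8.10, and the largest had 445 tags over a background of 54.0, higher than the background of any member.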

How the results depend on the processing

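No paired analysis was possible because the series has 1 ChIP library. Of 117 alternatives over 16 results, 84 stayed within the interval of the value reported (the number of members within 1.5 times). Reversal was defined only for the density ratios, and none of these reversed. Some alternatives could change nothing, such as keeping the excluded segments for 7p and 10p, which hold none. The count of 84 is therefore not a measure of robustness. All 38 alternatives for the density ratios were above 1, but the interval of 4 included 1: chromosome 10 to the comparison chromosomes at a −log10 q of 10 (1.21) or a fold of 5 (1.22, 0.980 to 1.51), and chromosome 7 to 10 at the same settings (1.15 and 1.01). The ratio of chromosome 7 to the comparison chromosomes was 1.46 at a −log10 q of 5, 1.39 at 10, 1.23 at a fold of 5, 2.07 with the excluded segments kept and 1.78 without chromosome 8. It was 1.45 with chromosome 7 only up to its first excluded segment, a setting added after seeing the data. With the segments kept, the ratio of chromosome 10 was 1.61. The ratio of chromosome 7 to 10 was 1.01 at a fold of 5. The number of members was 607 at a −log10 q of 5, 279 at 10 and 242 at a fold of 5. At a −log10 q of 10, median folds were 6.14 (7p), 5.57 (7q), 6.21 (10p) and 6.19 (10q). Median backgrounds there were 6.84 (7p), 8.59 (7q), 6.52 (10p) and 7.96 (10q). Shares at the genome-wide background were 1.75% (7p), 6.73% (7q), 8.82% (10p, 1.86 to 23.7) and 2.38% (10q), so 10p had the highest. The shares among pileups of 20 tags or fewer were 44.0% (7p), 41.2% (7q), 31.6% (10p) and 31.6% (10q). Above 20 tags they were 5.23% (7p), 6.67% (7q), 6.67% (10p) and 3.57% (10q). With the segments kept, the median fold of 10q was 3.83 and the median backgrounds 4.77 (7q) and 5.59 (10q). Without backgrounds of 3 times the genome-wide value or more, the median background of 7q was 5.00, and from the 1 kb or 10 kb windows alone that of 7p was 5.11.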
